A study of Mus musculus with 2 samples.

Results

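The NF-κB family comprises the genes of the 5 DNA-binding subunits (Rela, Rel, Relb, Nfkb1 and Nfkb2) and of 5 IκB proteins that bind them (Nfkbia, Nfkbib, Nfkbie, Nfkbid and Nfkbiz). All 10 were chosen by symbol and all 10 were found among the 24346 gene symbols of the deposited tables. RNA sequencing was done on Gr-1+ CD11b+ cells, a myeloid sort that holds neutrophils and monocytes, from BALB/c mice that had been given 3% dextran sulfate sodium (DSS, a colitis-inducing polymer) for 6 days. In the control library the cells had been kept without ATPγS, and in the other library with 100 µM ATPγS, an ATP analogue that resists hydrolysis, for 2.5 hours. The unit's micro sign is written in a symbol font in the label and was read as such. The treatment text is the same for both samples, so whether the control cells were also held for 2.5 hours is not stated. If they were not, incubation and ATPγS cannot be told apart. Each group is 1 library, the labels do not say how many mice each came from, and both groups carry the DSS treatment, so no sample shows these genes without DSS. With 1 library per group no replicate error exists, no p-value was computed, and every difference below describes these 2 libraries.

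NF-κB works as a dimer that is held in the cytoplasm by IκB proteins until an inflammatory signal activates the IκB kinases, which mark the inhibitor for degradation and free the dimer to enter the nucleus. Among the genes that nuclear NF-κB switches on are those of several of its own subunits and inhibitors, so that the inhibitor is soon made again. In neutrophils and monocytes the pathway drives cytokine and chemokine genes and prolongs survival. The activity of NF-κB is set largely by protein degradation and nuclear entry, neither of which an mRNA level measures.

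The cell label was compared with marker transcripts. All 9 neutrophil markers found were at 67.6 FPKM or more in both libraries, with S100a8 at 20604 and 22409.6 FPKM in control and ATPγS, while Ly6g, part of the Gr-1 antigen, was not analysed here. FPKM counts fragments relative to transcript length and to all mapped fragments, so levels can be set side by side between genes. Markers of other cells were present too. The summed level of 9 T and NK cell markers was 260 FPKM in the control and 89.4 FPKM in the ATPγS library, none of them at 0, and 6 of the 9 were at least 2-fold lower. Of all genes at a mean of at least 1 FPKM, 9.91% passed 2-fold on the lower side and 13.8% on the higher side. Of the 6, Prf1 rested on an estimated 13 and 1 reads and Nkg7 on 37 and 6. The sum of 6 B cell markers was 1261 and 895 FPKM, again with none at 0. Of 8 macrophage and dendritic cell markers, 7 had a log2 ratio above 0, with a median of 0.47, 2 at least 2-fold higher, 1 lower and none at 0. Of all genes at a mean of at least 40 FPKM, a level most of these markers do not reach, 38.9% lay above 0. Adgre1, of the macrophage antigen F4/80, was at 149 and 215 FPKM, and the complement genes C1qb and C1qc were at 39.7 and 78.9 FPKM and at 12.5 and 34.2 FPKM. C1qa was at 20.4 and 25.6 FPKM and Flt3 at only 0.946 and 3.78 FPKM, an estimated 7 and 39 reads. The lower gene was Clec9a, at 4.82 and 0.198 FPKM, an estimated 11 and 1 reads. The summed level of the 8 markers was 2893 and 3207 FPKM, most of it Cd74 (2647 and 2825 FPKM). Lymphocytes and macrophages also express the family, and the part of these differences in the values below was not tested. In such bulk samples fewer cells of a type and less RNA per cell cannot be told apart. Depth, recovered from the steps of the low values, came to about 2140000 fragments for the control and 2857000 with ATPγS.

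All 10 genes were expressed well above the typical gene. The lowest, Nfkb1, had a mean of 43.4 FPKM, and only 7.86% of all symbols had a mean of at least 40 FPKM. Nfkbia stood far above the rest, at rank 29 of all symbols in the control and rank 20 in the ATPγS library. It was followed by Nfkbiz, Nfkbib, Relb, Rela, Nfkb2, Nfkbid, Nfkbie, Rel and Nfkb1 in the order of mean level. The order in the middle was not firm. Nfkbib and Relb differed by under 3 FPKM in the control, as did Nfkbid and Nfkb2.

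**Figure D1:**
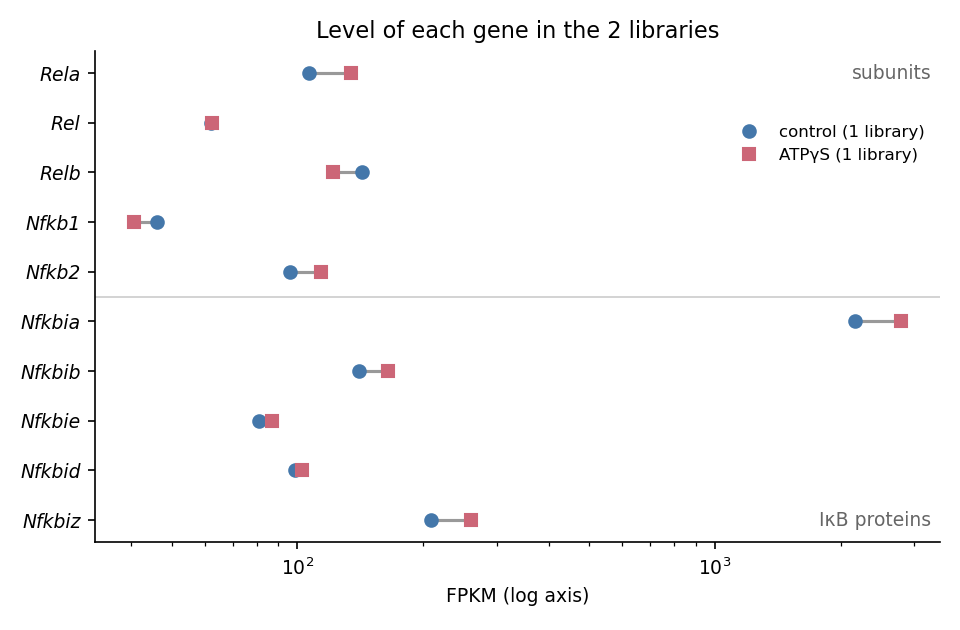
FPKM (log axis) of each of the 10 genes in the control library (circles) and the ATPγS library (squares), with subunits above the line and IκB proteins below it. Nfkbia lies at 2168 and 2795 FPKM, all other genes lie between 40.6 and 261 FPKM, and Relb and Nfkb1 are the 2 genes whose square lies left of the circle.

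None of the 10 genes reached a 2-fold difference between the libraries in either direction. Among all 18311 genes with a mean of at least 1 FPKM, 13.8% passed 2-fold on the higher side with ATPγS and 9.91% on the lower side. Most of those genes are of low level. Of the 1913 genes at a mean of at least 40 FPKM, the range in which the family lies, 2.25% passed it upward and 3.4% downward, so a count of 0 among 10 is near the background. The log2 ratio used for these calls is log2((ATPγS FPKM + 1)/(control FPKM + 1)), and ratios given with a gene are of its plain FPKM. Across the family the FPKM ratio ran from 0.855 (Relb) to 1.29 (Nfkbia).

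Small differences leaned to the ATPγS side. The log2 ratio was above 0 for 8 of the 10 genes, against 38.9% of genes at a mean of at least 40 FPKM, and the median over the family was 0.17. The median over all genes at a mean of at least 1 FPKM was 0.01, and at a mean of at least 10 FPKM it was -0.13. Rescaling the libraries so that this last median becomes 0 adds 0.13 to every log2 ratio. Relative to it Relb stood at -0.10 and Nfkb1 at -0.06, closer to the middle, and Nfkbia at 0.49. All 10 genes lay inside the 5 to 95% range of the 500 genes nearest to each in mean FPKM.

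**Figure D2:**
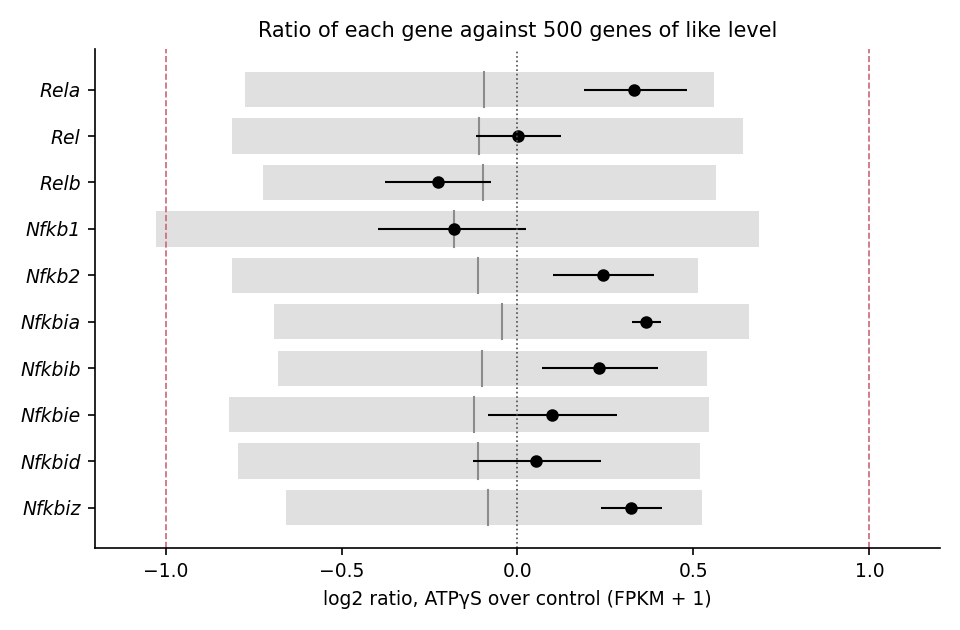
The log2 ratio of ATPγS over control FPKM (points) with the 95% counting interval of the ratio (lines), over the 5 to 95% range (grey bars) and the median (grey ticks) of the 500 genes nearest in mean FPKM. All 10 points lie inside the grey bars and between the dashed lines that mark 2-fold, from -0.22 for Relb to 0.37 for Nfkbia.

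Reads behind each level were estimated from the depth and the transcript length, and ran from about 352 for Nfkb1 in the control to about 12601 for Nfkbia with ATPγS. Exact 95% counting intervals of the ratio lay above 1 for 5 genes (Rela, Nfkb2, Nfkbia, Nfkbib and Nfkbiz), below 1 for Relb, and included 1 for the 4 others. This is no measure of replication. At a mean of at least 40 FPKM the same intervals lay above 1 for 23.4% of genes and below 1 for 41.9%, so these 2 libraries differed by more than counting error at most genes of this level.

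Of the 3 subunits with a transactivation domain, Rela was listed higher with ATPγS, Relb lower and Rel almost level. Rela encodes p65, which with p50 forms the classical dimer (chromosome 19, 5637483 to 5648130, plus strand, GRCm38, 11 exon blocks). Its level was 107 FPKM in the control and 135 FPKM with ATPγS, a ratio of 1.26 with a counting interval of 1.14 to 1.40. Of the 500 genes of like level, 12.6% had a log2 ratio at least as high.

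Rel encodes c-Rel, a subunit prominent in lymphocytes and in myeloid cytokine expression (chromosome 11, 23736847 to 23770970, minus strand). Its level hardly differed, at 62.3 FPKM in the control and 62.4 FPKM with ATPγS, and the counting interval of the ratio was 0.922 to 1.09.

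Relb encodes the partner of p52 in the alternative pathway (chromosome 7, 19606217 to 19629438, minus strand). It had the lowest ratio of the family, with 143 FPKM in the control and 122 FPKM with ATPγS, a ratio of 0.855 (counting interval 0.770 to 0.949). Of its 500 neighbours in level 34.8% had a log2 ratio at least as low. Relb was thus lower by less than the spread of ordinary genes at its level.

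Relb was the more abundant of Rela and Relb in the control and Rela in the ATPγS library. The level of Rela over that of Relb was 0.748 in the control and 1.10 with ATPγS. The ratio between those values, 1.48, does not depend on how the libraries are scaled, and its exact counting interval was 1.27 to 1.71. That interval covers counting error only. Rela and Relb had the highest and lowest ratios of the subunits, and both lay inside the spread of genes of like level. Rela over Rel was 1.71 in the control and 2.16 with ATPγS.

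The precursor genes went different ways by small amounts. Nfkb1 encodes p105, which is cut to p50 (chromosome 3, 135584655 to 135691547, minus strand, 25 exon blocks), and was the least abundant gene of the family. It was at 46.1 FPKM in the control and 40.6 FPKM with ATPγS, a ratio of 0.879 whose counting interval, 0.761 to 1.02, included 1. Nfkb2 encodes p100, which is cut to p52 and, uncut, acts as an inhibitor itself (chromosome 19, 46304320 to 46312385, plus strand). It was at 96.2 FPKM in the control and 114 FPKM with ATPγS, a ratio of 1.18 (1.07 to 1.31).

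Nfkb2 stood above Nfkb1 in both libraries, 2.09 times in the control and 2.81 times with ATPγS. The Nfkb2 exons share 299 bases with exons of Psd on the opposite strand, and the preparation does not mark strand, but Psd itself was at 2.55 and 3.53 FPKM only. Another 531 bases are shared with an opposite-strand model that was not analysed here. The 2 genes of the alternative dimer, Relb and Nfkb2, lay on opposite sides of 0.

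Among the cytoplasmic IκB genes Nfkbia was dominant. It encodes IκBα, the inhibitor that is degraded and made again within a single round of activation (chromosome 12, 55489410 to 55492647, minus strand, 6 exon blocks). It was at 2168 FPKM in the control and 2795 FPKM with ATPγS. Its ratio of 1.29 was the largest of the family, with a counting interval of 1.25 to 1.33, and 11.8% of its 500 neighbours had a log2 ratio at least as high. Since few genes reach its level, those neighbours range from 174 FPKM upward.

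Nfkbib encodes IκBβ, a more slowly degraded inhibitor (chromosome 7, 28758251 to 28767512, minus strand). It was at 140 FPKM in the control and 165 FPKM with ATPγS, a ratio of 1.18 (1.05 to 1.32). Its exons share 314 bases with those of Ccer2 on the opposite strand, which was not analysed here. Nfkbie encodes IκBε (chromosome 17, 45555703 to 45563169, plus strand) and was at 81.2 and 86.9 FPKM in control and ATPγS, with a counting interval of the ratio of 0.944 to 1.22. The cytoplasmic inhibitors were thus all listed higher with ATPγS, by 7.06% for Nfkbie, 17.7% for Nfkbib and 28.9% for Nfkbia.

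The nuclear IκB genes encode proteins that act on promoters with p50 or p52 rather than in the cytoplasm. Nfkbiz encodes IκBζ, a co-activator of a secondary set of inflammatory genes (chromosome 16, 55811375 to 55838899, minus strand). It was the second most abundant gene of the family, at 209 FPKM in the control and 261 FPKM with ATPγS, a ratio of 1.25 (1.18 to 1.33). Nfkbid encodes IκBNS, a nuclear regulator of cytokine genes (chromosome 7, 30421732 to 30428746, plus strand). It differed little, at 98.9 and 103 FPKM, and its counting interval of 0.916 to 1.18 included 1.

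Within the family the IκB transcripts, those of the nuclear IκB proteins included, outweighed those of the subunits. The 5 IκB genes summed to 2697 FPKM in the control and 3411 FPKM with ATPγS, and the 5 subunit genes to 454 and 474 FPKM. The IκB sum was 5.94 times the subunit sum in the control and 7.203 times with ATPγS. Without Nfkbia the ratio was 1.17 and 1.30, so this 1 transcript made up most of the excess. In that remainder the nuclear genes Nfkbiz and Nfkbid summed to 1.39 times Nfkbib and Nfkbie in the control and 1.44 times with ATPγS. The remainder is therefore not a sum of cytoplasmic inhibitors alone. Nfkbia made up 80.4% of the IκB sum in the control and 81.9% with ATPγS.

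Of the gene pairs given a counting interval, only Nfkbia over Rela had one that included 1. Nfkbia stood at 20.3 times Rela in the control and 20.8 times with ATPγS, a difference within counting error, since the ratio between those values was 1.02 with an exact interval of 0.920 to 1.14. The subunit sum shifted in its parts more than in its total. Rela made up 23.5% of it in the control and 28.4% with ATPγS, Relb 31.4% and 25.8%, Nfkb2 21.2% and 24.1%, Rel 13.7% and 13.2%, and Nfkb1 10.2% and 8.57%.

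**Figure D3:**
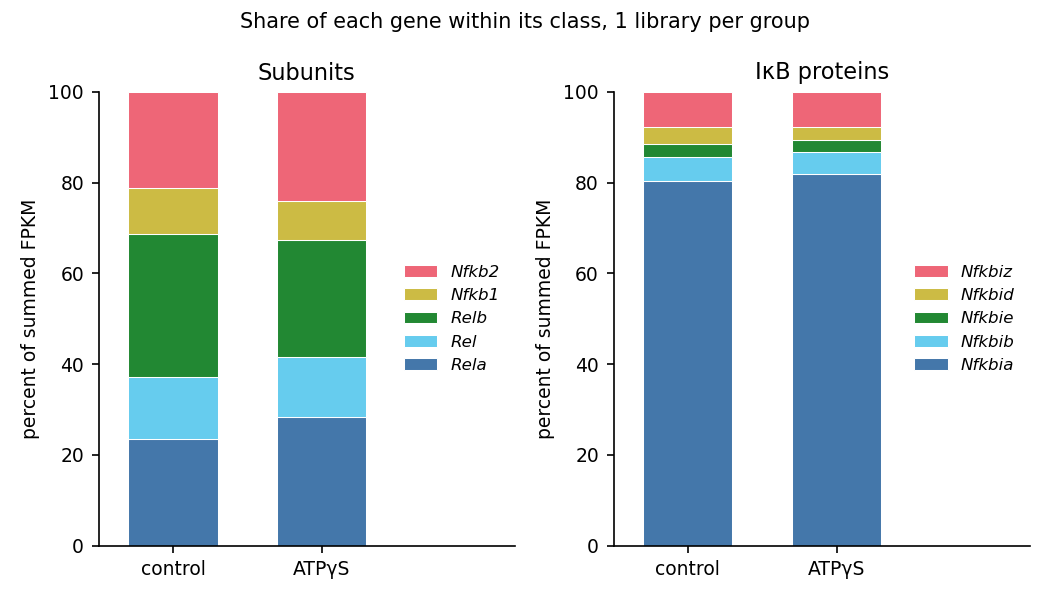
Percent of the summed FPKM made up by each gene, for the 5 subunits (left) and the 5 IκB proteins (right), in the control and ATPγS libraries. Nfkbia fills 80.4% and 81.9% of the right bars, and on the left the Rela share is larger and the Relb share smaller with ATPγS.

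Several genes of the family are known targets of NF-κB, so the bases before their start sites were read from RefSeq promoter sequences (GRCm38.p6, the same build as mm10). Sequences were given for 7 of the 10 genes, at 11 start sites. The 3 others are Relb, Nfkb1 and Nfkbiz. The 10-base κB consensus, the site NF-κB dimers bind, was searched on both strands in the 250 bases before each start. It was found at 7 of the 11 start sites and in 5 of the 7 genes, against 7.25% of all 32851 start sites of this length and 8.23% of all 27025 genes. Nfkbia is shown first because it is the most abundant of the family and had its largest ratio. The stretch is chr12:55492648-55492897, minus strand, with the consensus match in capitals, 29 to 20 bases before the start.
Nfkbia: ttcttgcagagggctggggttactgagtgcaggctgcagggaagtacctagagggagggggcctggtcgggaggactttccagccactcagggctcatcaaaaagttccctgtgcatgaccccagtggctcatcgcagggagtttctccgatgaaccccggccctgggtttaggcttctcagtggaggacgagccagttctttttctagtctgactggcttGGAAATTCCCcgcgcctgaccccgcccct

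One match from each of the other 4 genes follows with its flanks. The search pattern sets which letters a match may hold, so the likeness of the matches is no result. Capitals again mark the consensus match. They lie at chr19:46304688-46304717 (Nfkb2, plus strand, 39 to 30 bases before its first listed start), chr11:23771042-23771071 (Rel, minus strand, 92 to 83 bases before), chr17:45555584-45555613 (Nfkbie, plus strand, 106 to 97 bases before) and chr7:30422170-30422199 (Nfkbid, plus strand, 226 to 217 bases before its second listed start). The starts used for Nfkb2 and Nfkbid lie inside the gene spans given above, as do those of Nfkbib and Rela, where no match was found. Both matches of Rel and the first 2 of Nfkb2 overlap by all but 1 base and are in effect 1 site each.
Nfkb2: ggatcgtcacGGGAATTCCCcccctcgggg
Rel: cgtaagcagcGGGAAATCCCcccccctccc
Nfkbie: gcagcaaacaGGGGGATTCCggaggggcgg
Nfkbid: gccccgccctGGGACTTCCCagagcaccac

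Log2 ratios of the genes with and without a match overlapped. The 5 with a match were Nfkbia at 0.37, Nfkb2 at 0.24, Nfkbie at 0.10, Nfkbid at 0.05 and Rel at 0.00. Rela and Nfkbib, in whose windows the consensus letters were not found, had 0.33 and 0.23. These letters describe the windows only and say nothing of binding.

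**Figure D4:**
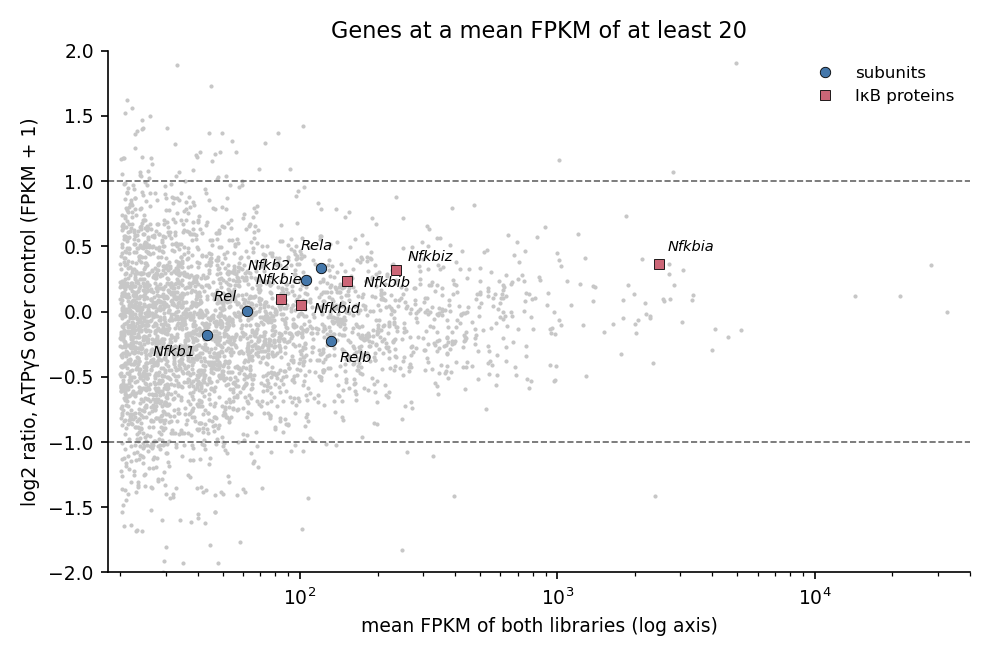
Log2 ratio of ATPγS over control (FPKM + 1) against mean FPKM (log axis) for the 3480 genes at a mean of at least 20 FPKM, with the subunits as circles and the IκB proteins as squares. The 52 genes beyond a log2 ratio of 2 in either direction are not drawn, the dashed lines mark 2-fold, and all 10 labelled genes lie between -0.22 and 0.37.

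The rest of the pathway was taken as 6 lists, with 94 different genes outside the family. Of these, 5 passed 2-fold on the higher side with ATPγS and 7 on the lower side, or 5.32% and 7.45%, beside 13.8% and 9.91% of all genes at a mean of at least 1 FPKM. These shares are not matched in level. By list, between 7 of 12 (IκB kinases) and 32 of 34 (targets) genes had a mean of at least 10 FPKM, against 6125 of all 18311. At a mean of at least 40 FPKM the shares of all genes were 2.25% and 3.4%, so no excess or lack can be read from the comparison. The median log2 ratio over the 94 was 0.04.

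The kinases that phosphorylate IκB, and those above them, had a median log2 ratio of 0.09 over 12 genes, with 1 at least 2-fold higher and 0 lower. The 1 was Tab3, of an adaptor of the kinase TAK1, at 2.06 and 5.37 FPKM in control and ATPγS. Ikbkb, of the catalytic kinase IKKβ, was at 26.2 and 20.9 FPKM. Map3k8, of the kinase that p105 holds inactive, was at 96.5 and 70.6 FPKM, and was the most abundant of the list. Ikbke and Tbk1, of the related kinases that also activate interferon genes, were at 66.6 and 71.6 FPKM and at 54.2 and 57.5 FPKM. These 4 kinase genes had log2 ratios between -0.45 (Map3k8) and 0.10 (Ikbke).

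Adaptors and ubiquitin ligases upstream of the kinases spread more widely, with a median log2 ratio of -0.25 over 22 genes, 1 at least 2-fold higher and 3 lower. The 3 were Traf2, of a ligase adaptor of TNF receptors (36.0 and 10.6 FPKM), and Rbck1 (44.1 and 16.1 FPKM) and Sharpin (43.1 and 16.6 FPKM), of subunits of the linear ubiquitin ligase. Rnf31, of the catalytic subunit of that ligase and chosen after its values were seen, was at 19.99 and 10.2 FPKM. Of the 500 genes nearest in level, those at least as low made up 1.2% for Traf2, 1.60% for Rbck1, 2.40% for Sharpin and 12.0% for Rnf31. T cell markers were mostly lower in the same library, with Lck at 64.9 and 20.4 FPKM. Cd4 differed less, at 8.16 and 6.86 FPKM, and Cd8a was higher, at 2.98 and 3.57 FPKM. The part of T cells in the adaptor and ligase values was not tested.

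Receptor-proximal adaptors of the list went both ways at higher levels. Myd88, of the adaptor of Toll-like and interleukin 1 receptors, was at 231 and 157 FPKM. Irak2, of a kinase that follows it, was at 139 FPKM in the control and 209 FPKM with ATPγS, and 3.60% of genes of like level had a log2 ratio at least as high. Irak3, of an inhibitory member of that kinase family, was at 178 and 180 FPKM. Card9, of an adaptor of C-type lectin receptors, was the 1 gene at least 2-fold higher, at only 1.81 and 4.85 FPKM.

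The ligase that ubiquitinates phosphorylated IκB had 5 genes, with 0 past 2-fold and no firm direction. The median log2 ratio was 0.18, but -0.12 at a mean of at least 5 or at least 10 FPKM, where Btrc, of a substrate receptor (2.65 and 3.13 FPKM), drops out. The summed level was 248 FPKM in the control and 181 FPKM with ATPγS. Skp1a, of its shared adaptor, was at 135 and 76.2 FPKM, Rbx1, of its RING subunit, at 66.8 and 45.1 FPKM, and Cul1, of its scaffold, at 23.6 and 29.7 FPKM.

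Other brakes and IκB-like modulators had a median log2 ratio of -0.26 over 16 genes, with 1 at least 2-fold higher and 3 lower. Tnfaip3, of the ubiquitin-editing enzyme A20 and a target that is induced alongside Nfkbia, was the most abundant, at 279 and 349 FPKM. Its ratio of 1.25 was near those of Nfkbia and Nfkbiz, but 12.0% of genes of like level had a log2 ratio at least as high. Whether these genes respond together was not tested. Bcl3, of a further nuclear IκB protein, was at 231 and 232 FPKM. Tax1bp1, of an A20 partner, was at 202 and 162 FPKM. The 3 lower genes were Rnf11, of another A20 partner (92.0 and 44.5 FPKM), Commd1, of a protein that promotes RelA turnover (21.6 and 6.73 FPKM), and Nfkbil1, an IκB-like gene (9.79 and 2.80 FPKM). Otud7b, of a deubiquitinase of TRAF3, was the higher one, at 3.00 and 7.23 FPKM.

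Transcription targets had a median log2 ratio of 0.14 over 34 genes, close to that of the family, with 2 at least 2-fold higher and 0 lower. Ccl4, of a macrophage-attracting chemokine, was at 1818 and 3818 FPKM, and Nos2, of inducible nitric oxide synthase, at 0.862 and 6.53 FPKM. Il1b, of interleukin 1β, was at 3218 and 3429 FPKM and Lcn2, of the siderophore-binding lipocalin, at 2487 and 2654 FPKM. Some other abundant targets, chosen after their values were seen, had ratios as large as that of Nfkbia or larger. Among them were the chemokine genes Ccl3 (1833 and 2418 FPKM, a ratio of 1.32) and Cxcl2 (959 and 1452 FPKM, a ratio of 1.51), and Marcksl1 (876 and 1153 FPKM, a ratio of 1.32). Abundant targets that were lower, chosen in the same way, included Cxcl1 (2130 and 1906 FPKM, a ratio of 0.895). Icam1 (592 and 557 FPKM, a ratio of 0.942) and Cd83 (213 and 141 FPKM, a ratio of 0.664) were lower too. Csf3, which encodes G-CSF, a growth factor of granulocytes, was at 26.1 and 45.7 FPKM. Of the 34, 23 lay above 0 and 11 below, beside 38.9% of all genes above 0 at a mean of at least 40 FPKM, a level that not all targets reach.

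Receptors that feed the alternative pathway, the one that uses Relb and Nfkb2, had a median of -0.21 over 6 genes, with 1 at least 2-fold lower. It was Tnfrsf11a, of the RANK receptor, at 10.7 and 3.83 FPKM. Tnfrsf1b, of TNF receptor 2, was the most abundant at 404 and 484 FPKM, and Tnfrsf12a, of the TWEAK receptor, was at 135 and 120 FPKM. Cd40, of a co-stimulatory receptor, was at 58.5 and 49.0 FPKM. Tnfrsf13c, of the B cell survival receptor for BAFF, was at 26.1 and 15.0 FPKM, beside the lower B cell marker sum given above. Ltbr, of the lymphotoxin β receptor, was at 13.5 and 18.7 FPKM.

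**Figure D5:**
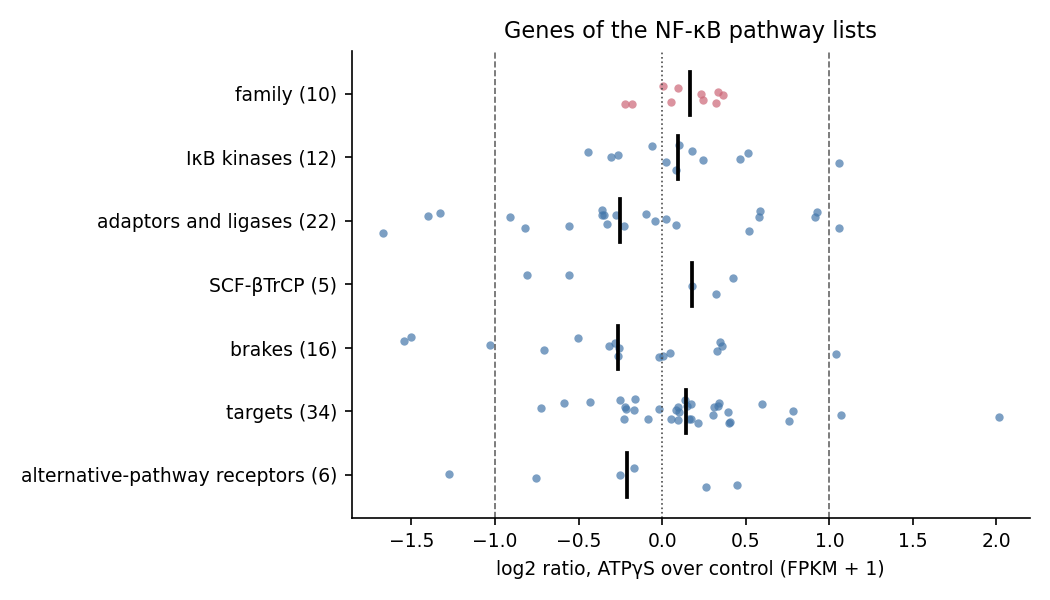
Log2 ratio of ATPγS over control (FPKM + 1) of each gene at a mean of at least 1 FPKM (points) in the family and the 6 pathway lists, with the number of genes in brackets, the median as a black bar and 2-fold as dashed lines. The family spans -0.22 to 0.37, the adaptors and ligases reach down to -1.67 (Traf2), and the targets reach up to 2.01 (Nos2).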

How the data were processed

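Per the labels' protocols, cDNA came from SMART-Seq HT and the sequencing libraries from a Nextera preparation, which keeps no strand information. Cufflinks 2.2.1, SAMtools 0.1.19, TopHat2 2.0.13 and Bowtie2 2.2.3 are listed with build mm10, per the submitters' processing notes. The values the authors deposited were taken as FPKM, 1 per gene symbol. The unit was inferred from Cufflinks and the values, and the annotation is not given in the sources used here.

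Log2 ratios used a pseudocount of 1, which understates low genes, and calls a mean FPKM of at least 1 and 2-fold. Depth was read from FPKM steps in olfactory and vomeronasal receptor genes (in control and ATPγS, 70.2% and 70.0% of values under 10 reads were whole to within 0.05, and 10% would be by chance). Read numbers used median GENCODE M21 transcript lengths (95.6% of symbols matched) and are approximate. Intervals are 95% exact (Clopper-Pearson for a ratio, conditional for a ratio of ratios) and cover counting error only. Depth recovery, fold calls and ratio intervals were tested on simulated data. Those held counting error only and used the lengths the steps assume, so the test does not cover wrong lengths or other error. Python 3.11.15, pandas 2.3.3 and SciPy 1.17.1 were used.

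Every family gene was named. From each pathway list the text names the genes past 2-fold (at most 6), the 3 most abundant and the 2 with the largest ratio among those whose mean FPKM is 10 or more. The family, lists and rules were chosen with earlier results of these data known. Markers of 7 cell types were examined. Neutrophil, T and NK, B cell and macrophage values are in the report and the others in the closing section. Planned protein features were not analysed here.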

Additional observations from a re-analysis of the deposited data

How the results depend on the processing

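The family count of 0 past 2-fold in either direction was the same with pseudocounts of 0.1 and 5, after rescaling to equal FPKM sums or to a median log2 ratio of 0, with no filter, at a mean FPKM of at least 5 or of at least 10 (the last added after seeing the data) and at 1.5-fold. No family gene changed sign under the pseudocounts or rescalings, which kept Relb between -0.23 and -0.10, Nfkb1 between -0.19 and -0.06 and Nfkbia between 0.37 and 0.49. Rescaling to equal sums added 0.05 to abundant genes. Counting intervals were not recomputed under the rescalings. The family median went up to 0.29 after rescaling to a median of 0. No family gene left the 5 to 95% range of like-level genes with 200 or 1000 neighbours. Leaving out Nfkbia gave an IκB to subunit ratio of 1.17 in the control and 1.30 with ATPγS. Of the pathway genes, those at least 2-fold higher numbered 2 at a mean FPKM of at least 5, 1 at a mean of at least 10 and 1 with a pseudocount of 5, against 5 as reported, and 11 at 1.5-fold. Those lower numbered 4 with a pseudocount of 5 and 14 at 1.5-fold, against 7. The median of the IκB ligase list turned from 0.18 to -0.12 at a mean FPKM of at least 5 or 10, where 4 of its 5 genes are left. No paired analysis was possible because each group is 1 library, and for the same reason no library could be left out.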

Other observations

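The other marker lists give the setting in which the family was measured. Over 6 monocyte markers the summed level was 430 FPKM in the control and 446 FPKM in the ATPγS library, with 0 past 2-fold. Over 6 epithelial and fibroblast markers it was 415 and 426 FPKM, with 0 past 2-fold. The 3 erythroid markers found summed to 732 and 634 FPKM, 1 of them at least 2-fold higher. The 9 neutrophil markers summed to 37420 and 40299 FPKM, with 0 past 2-fold.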
